A study of Mus musculus with 20 samples.

Results

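Cholesterol and fatty acid synthesis genes were followed in endothelial cells sorted from mouse sciatic nerve before and after injury. They were chosen by name, with earlier results of these data known. The list holds 31 symbols, all 31 present among the 55376 genes of the deposited count tables. They fall into 20 genes of sterol synthesis, 6 of fatty acid synthesis and 5 that control the SREBP transcription factors. There were 20 bulk polyA RNA-seq libraries. Intact libraries (n = 5) were made from pools of uninjured nerves from adult mice in which Cdh5(PAC)-CreERT2 switched on the R26-Tomato reporter, so that cells expressing the Cdh5 promoter were labelled. Libraries at 7 days post-injury (7 dpi, n = 5) and 14 dpi (n = 4) came from mice of the same reporter, from the lesion site, called the bridge in the design text and crush in the condition label. In a separate experiment at 7 dpi, bridge cells carried a Kdr-Cherry reporter. They came from controls labelled Plxnd1 WT (WT, n = 3) or from Chd5::CreER; Plxnd1fl/fl mice (spelled as in the design text), which lose the receptor Plexin-D1 in endothelium (KO, n = 3). Whether the controls carried the Cre is not in the labels, so deletion and Cre cannot be told apart in KO against WT. Reporter-positive, CD45-negative cells were taken by flow sorting after enzymatic dissociation. Nerves were pooled, and the labels do not tie libraries to animals, so the p-values measure the spread between these libraries.

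Cholesterol is built from acetyl-CoA through mevalonate, isoprenyl diphosphates, squalene and lanosterol, while fatty acids are built from the same acetyl-CoA through malonyl-CoA. The transcription factor SREBP2, product of Srebf2, drives the sterol genes. It is held in the endoplasmic reticulum with its escort Scap by the Insig proteins when sterols are plentiful, and travels to the Golgi to be cleaved and released when sterols are scarce. SREBP1, product of Srebf1, mainly drives fatty acid genes. Srebf2 and Insig1 are themselves known targets of SREBP2. Endothelial cells can make cholesterol and also take it up from lipoproteins.

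Total counts ran from 19057029 to 34181449 per library in the Tomato experiment and from 19253137 to 33793402 in the Cherry experiment. Every library carried endothelial transcripts: 10 endothelial markers summed to 4803 to 12200 CPM (the usual depth-scaled read count) in intact, 6788 to 10320 at 7 dpi, 5971 to 7923 at 14 dpi, 10440 to 10920 in WT and 10880 to 11540 in KO. Of the 10, 6 rose and 1 fell at 7 dpi, and 2 rose and 1 fell at 14 dpi. The 1 that fell was Cldn5, a tight junction protein, by 2.33 ± 0.18 at 7 dpi and 1.61 ± 0.19 at 14 dpi on the log2 scale. Transcripts of other nerve cells were present as well, and their sums are given beside the results below. In bulk samples, fewer cells of a type and less RNA per cell cannot be told apart. CPM values are scaled within each experiment, so levels set across the Tomato and Cherry experiments are side by side only.

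The promoters of 5 genes are shown because they frame the pattern described below: 3 enzymes of sterol synthesis and Srebf2 were lower at both injury times, and Elovl6 was higher at 7 dpi. Each window runs from 250 bases before to 50 bases after a RefSeq transcription start (GRCm38.p6), written 5′ to 3′ along the gene. Capitals mark the core of the sterol regulatory element TCACNCCAC and the CCAAT box, on either strand; a CCAAT box on the other strand reads ATTGG. The windows are chr13:119690101-119690400 on the plus strand for Hmgcs1, chr10:76531355-76531654 on the plus strand for Lss, chr8:64733529-64733828 on the minus strand for Msmo1, chr15:82147019-82147318 on the plus strand for Srebf2 and chr3:129532136-129532435 on the plus strand for Elovl6.
Hmgcs1: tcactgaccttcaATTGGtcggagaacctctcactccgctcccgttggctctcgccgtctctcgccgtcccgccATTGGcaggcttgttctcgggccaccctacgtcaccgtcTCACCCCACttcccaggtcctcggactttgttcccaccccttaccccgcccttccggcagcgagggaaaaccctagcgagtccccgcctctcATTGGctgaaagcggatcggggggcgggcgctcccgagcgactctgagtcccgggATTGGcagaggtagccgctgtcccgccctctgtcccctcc
Lss: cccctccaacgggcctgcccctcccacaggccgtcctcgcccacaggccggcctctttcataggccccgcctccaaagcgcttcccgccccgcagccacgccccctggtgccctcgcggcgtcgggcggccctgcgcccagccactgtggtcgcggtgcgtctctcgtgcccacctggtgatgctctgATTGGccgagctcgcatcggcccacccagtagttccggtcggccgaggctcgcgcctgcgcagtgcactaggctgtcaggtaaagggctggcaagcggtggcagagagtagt
Msmo1: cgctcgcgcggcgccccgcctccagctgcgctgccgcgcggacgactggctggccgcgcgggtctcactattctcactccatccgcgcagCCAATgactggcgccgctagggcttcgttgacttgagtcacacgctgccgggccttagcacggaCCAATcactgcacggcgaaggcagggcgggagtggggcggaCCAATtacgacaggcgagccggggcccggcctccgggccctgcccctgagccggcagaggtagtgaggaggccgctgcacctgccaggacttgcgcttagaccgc
Srebf2: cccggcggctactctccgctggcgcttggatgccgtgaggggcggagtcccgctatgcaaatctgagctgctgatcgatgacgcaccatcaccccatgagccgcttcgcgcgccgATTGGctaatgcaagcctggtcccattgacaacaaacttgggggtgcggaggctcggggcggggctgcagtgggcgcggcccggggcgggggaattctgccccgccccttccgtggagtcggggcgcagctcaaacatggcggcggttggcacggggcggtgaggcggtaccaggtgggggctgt
Elovl6: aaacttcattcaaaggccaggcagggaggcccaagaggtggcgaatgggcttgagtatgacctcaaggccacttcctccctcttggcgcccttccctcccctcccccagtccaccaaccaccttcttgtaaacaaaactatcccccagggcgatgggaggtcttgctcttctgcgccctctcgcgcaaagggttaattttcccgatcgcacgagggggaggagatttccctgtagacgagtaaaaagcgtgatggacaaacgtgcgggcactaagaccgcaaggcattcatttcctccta
Of the 31 genes, 25 had a window in the table. The exact letters TCACNCCAC, the core bound by SREBP proteins, were found in 1 of them, Hmgcs1, as TCACCCCAC with its first base at position -137 from the start, and in 1.44% of all genes with a window. CCAAT, the box bound by NF-Y, a known partner of SREBP proteins, was found in 21 of 25 (84%), against 41.1% of all genes. GGGCGG, the GC box bound by Sp1, was found in 20 of 25 (80%), against 38.2% of all genes. CACGTG, an E-box that SREBP proteins can also bind, was found in 5 of 25 (20%), against 8.09% of all genes. None of the 4 motifs contains another. Among the 10 genes with a window that were lower at both injury times, 10 held CCAAT and 10 held GGGCGG; among the other 15 the counts were 11 and 10. The Elovl6 window held none of the 4 motifs. Fdps, Fdft1 and Sqle were lower at both injury times and had no window. Sequences that differ from the exact letters were not counted, so a window without a match is not read as lacking an SREBP site. These are matches of letters, not measured binding, and they were not tested.

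After injury the sterol synthesis genes were lower as a group, while most fatty acid synthesis genes did not pass the test. At 7 dpi, 11 of 20 sterol genes fell and 1 rose, and at 14 dpi 13 of 20 fell and none rose (edgeR quasi-likelihood test, Benjamini-Hochberg adjusted p under 0.05 over all genes). The falls ranged at 7 dpi from 0.75 on the log2 scale (Fdft1) to 1.86 (Lss), and at 14 dpi from 0.62 (Acat2) to 2.26 (Sqle). Of the 6 fatty acid genes, 1 rose and none fell at 7 dpi, and none was called at 14 dpi. Of the 5 SREBP control genes, 2 fell at both times, Srebf2 and Insig1.

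Over all genes tested at 7 dpi, 32.0% were called, 15.7% higher and 16.3% lower; of the 31 genes, 2 were higher and 13 lower (48.4% called, 41.9% lower). The background at 14 dpi was 12% called, 6.86% higher and 5.09% lower, beside 0 higher and 15 lower of the 31 (48.4%). The median log2 change of the 20 sterol genes was -0.89 at 7 dpi and -1.10 at 14 dpi, beside -0.10 and 0.01 over all 20409 genes tested. The medians of the 6 fatty acid genes were -0.23 and 0.14. The 5 SREBP control genes had medians of -0.36 and -0.21, and all 5 estimates were negative at both times. The 31 genes were listed with earlier results of these data known, so their distance from the background is not separate support. Both injury comparisons share the intact libraries. All 31 genes passed the filter on low counts in both experiments.

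**Figure D1:**
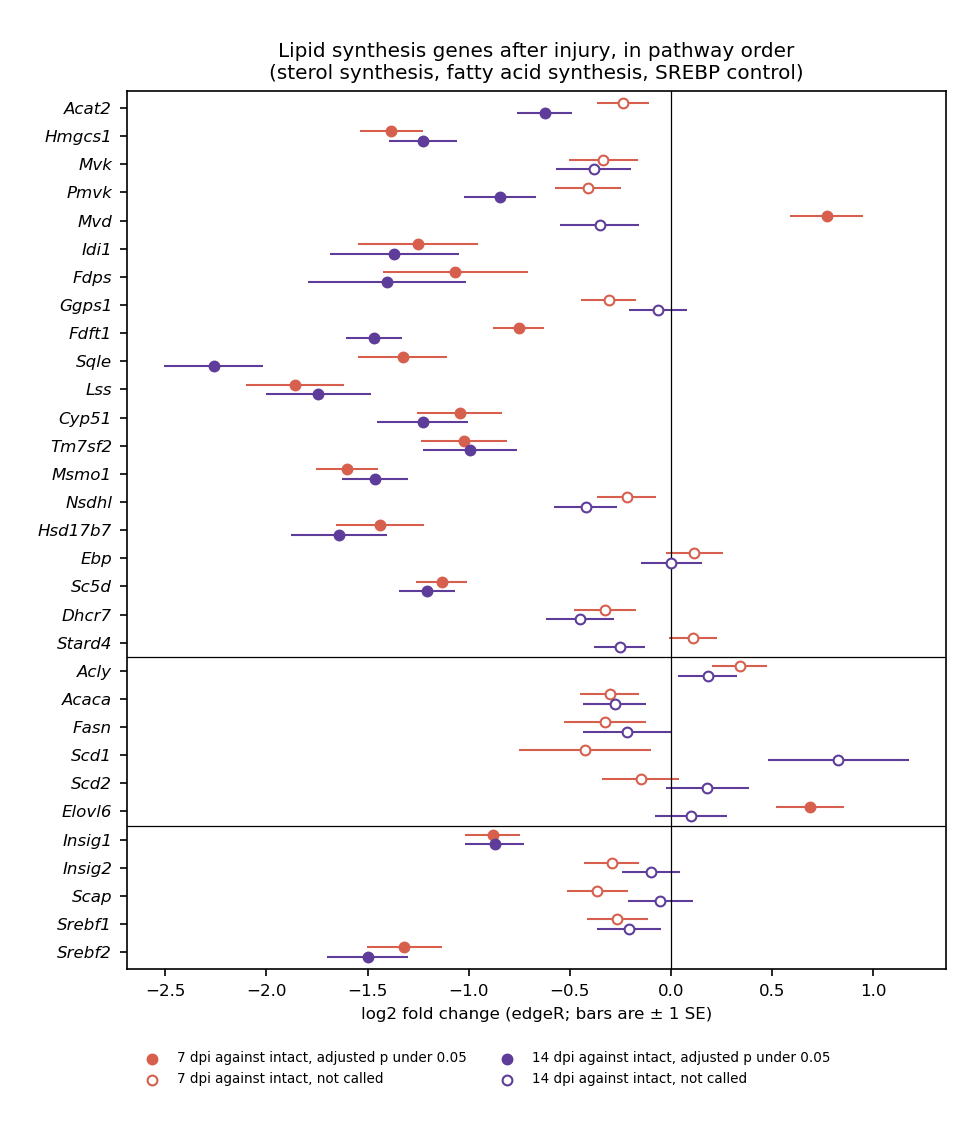
Log2 fold change against intact on the horizontal axis for the 31 genes, in pathway order from top to bottom, at 7 dpi (red) and 14 dpi (purple); bars are ± 1 SE, filled points have an adjusted p under 0.05, and lines separate sterol synthesis, fatty acid synthesis and SREBP control. Filled points lie left of 0 except Mvd and Elovl6 at 7 dpi, and the fatty acid genes are mostly open points.

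The early mevalonate steps were uneven. Acat2, which joins acetyl-CoA units, fell at 14 dpi by 0.62 ± 0.14 (SE) on the log2 scale and was at -0.24 ± 0.13 at 7 dpi, where it was not called. Of its 50-base words 39.1% recur in its near-copy Acat3, so its counts are uncertain. Hmgcs1, which makes HMG-CoA and commits carbon to the pathway, stood at 95.5, 95.3, 143, 145 and 126 CPM in the intact libraries. At 7 dpi it stood at 47.2, 45.1, 52.7, 47.0 and 38.9 CPM, and at 14 dpi at 39.5, 55.5, 62.2 and 51.6 CPM. The injured libraries all lay below the intact ones. Gm48342 overlaps 16% of its exonic bases on the opposite strand. Hmgcs1 fell by 1.38 ± 0.16 at 7 dpi (adjusted p = 3.85e-06) and by 1.23 ± 0.17 at 14 dpi (adjusted p = 0.000112). Mvk, mevalonate kinase, was at -0.33 ± 0.17 and -0.38 ± 0.18 and was called at neither time. Pmvk, the next kinase, fell at 14 dpi by 0.84 ± 0.18 and was at -0.41 ± 0.16 at 7 dpi (adjusted p = 0.0688), where 7 of 21 alternative settings called it lower.

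Mvd, the decarboxylase that yields isopentenyl diphosphate, went the other way at 7 dpi. Its intact libraries were at 9.21, 12.2, 10.97, 19.3 and 9.58 CPM and its 7 dpi libraries at 18.6, 20.1, 16.6, 24.4 and 25.1 CPM. The groups overlapped through 1 intact library, replicate 4. Mvd rose by 0.77 ± 0.18 on the log2 scale (adjusted p = 0.00345). At 14 dpi it was back at 7.06, 9.26, 9.81 and 13.7 CPM, within the intact range except for the lowest library, and below 7 dpi in every library. It was 1.12 ± 0.20 lower on the log2 scale at 14 than at 7 dpi (log2 change -1.12, adjusted p = 0.00176).

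The isoprenyl steps that lead to squalene were lower. Idi1, which interconverts the isoprenyl diphosphates, fell by 1.25 ± 0.30 at 7 dpi and by 1.37 ± 0.32 at 14 dpi, from a low level of 5.79 ± 1.79 CPM (SD, n = 5) in intact. Fdps, farnesyl diphosphate synthase, fell by 1.06 ± 0.36 and 1.40 ± 0.39 from 2.56 ± 0.66 CPM, with as few as 13 reads in 1 library. The Fdps call was lost in 9 of 21 alternative settings at 7 dpi and in 8 of 20 at 14 dpi, among them leaving out intact replicate 4 at either time. Also, 77.4% of Fdps exonic bases overlap Gm43738 on the same strand, and 25.3% of the 50-base words of Idi1 transcripts recur in other genes, so the counts of both are uncertain. Ggps1, which takes farnesyl diphosphate off to geranylgeranyl diphosphate for protein prenylation, was at -0.31 ± 0.14 and -0.06 ± 0.14 and was called at neither time.

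Squalene synthesis and closure to lanosterol held the largest fall of the 31 at each time, Lss at 7 dpi and Sqle at 14 dpi. Fdft1, squalene synthase, stood at 46.5, 62.0, 60.1, 82.4 and 58.7 CPM in intact, 33.3, 38.0, 32.4, 40.8 and 38.6 at 7 dpi, and 19.8, 21.6, 22.6 and 26.8 at 14 dpi. The 3 groups did not overlap. The fall was 0.75 ± 0.13 at 7 dpi and 1.47 ± 0.14 at 14 dpi. Its exons overlap those of Ctsb, on the opposite strand, over 19.4% of bases, and the strand setting of the counting is not given in the sources used here. Sqle, squalene epoxidase, the first oxygen-dependent step, stood at 48.4, 56.0, 73.1, 85.9 and 74.1 CPM in intact. It stood at 34.1, 24.0, 31.1, 20.9 and 22.3 CPM at 7 dpi and at 8.78, 13.7, 21.4 and 13.03 CPM at 14 dpi. Both injured groups lay below the intact range, and 1 library at 14 dpi, replicate 3, reached the 7 dpi range. Sqle fell by 1.33 ± 0.22 at 7 dpi (adjusted p = 0.000168) and by 2.26 ± 0.24 at 14 dpi (adjusted p = 1.38e-05), to 0.209 of its intact level. Lss, lanosterol synthase, stood at 13.5, 11.1, 18.4, 15.9 and 14.6 CPM in intact, at 3.43, 4.48, 3.04, 4.67 and 4.77 CPM at 7 dpi and at 2.34, 6.08, 3.97 and 5.38 CPM at 14 dpi. The injured groups overlapped each other and not the intact group. Lss fell by 1.86 ± 0.24 (adjusted p = 1.64e-05) and by 1.74 ± 0.26 (adjusted p = 0.00024).

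Most of the steps from lanosterol towards cholesterol were lower too, but not all. Msmo1, the sterol methyl oxidase, had the highest level per length of the sterol genes in intact, and stood there at 68.8, 80.5, 92.1, 107 and 71.5 CPM. At 7 dpi it stood at 31.2, 32.2, 32.1, 20.3 and 24.4 CPM, and at 14 dpi at 32.6, 31.3, 31.02 and 26.2 CPM. No injured library reached the intact range. Msmo1 fell at both times, with log2 changes of -1.60 ± 0.15 (adjusted p = 6.98e-07) and -1.46 ± 0.16 (adjusted p = 1.85e-05). Cyp51, lanosterol demethylase, fell by 1.04 ± 0.21 and 1.23 ± 0.22, and Tm7sf2, a sterol reductase, by 1.02 ± 0.22 and 0.99 ± 0.23. The Tm7sf2 call at 14 dpi was lost in 4 of 20 settings. Hsd17b7, the sterol ketoreductase, fell by 1.44 ± 0.22 and 1.64 ± 0.24, and Sc5d, the sterol desaturase near the end of the pathway, by 1.13 ± 0.13 and 1.21 ± 0.14. Nsdhl, Ebp and Dhcr7, a dehydrogenase, an isomerase and a final reductase of the same stretch, were called at neither time, nor was Stard4, a carrier that moves sterol between membranes. Ebp was at 0.12 ± 0.14 and 0.00 ± 0.15, and Stard4 at 0.11 ± 0.12 and -0.25 ± 0.13. Nsdhl was at -0.22 ± 0.15 and -0.42 ± 0.16, and Dhcr7 at -0.33 ± 0.15 and -0.45 ± 0.17; both were called lower at 14 dpi in 5 of 20 alternative settings.

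Summed over the 20 sterol genes, the level was 758 to 1071 CPM in the intact libraries, 532 to 616 CPM at 7 dpi and 500.5 to 545.5 CPM at 14 dpi. The intact libraries lay above all injured ones. Of the 20 genes, 11 fell at both times (Hmgcs1, Idi1, Fdps, Fdft1, Sqle, Lss, Cyp51, Tm7sf2, Msmo1, Hsd17b7 and Sc5d), 2 passed the test at 14 dpi and not at 7 dpi (Acat2 and Pmvk), and 6 at neither time. The comparison of 14 with 7 dpi called neither Acat2 (adjusted p = 0.0896) nor Pmvk (adjusted p = 0.152).

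**Figure D2:**
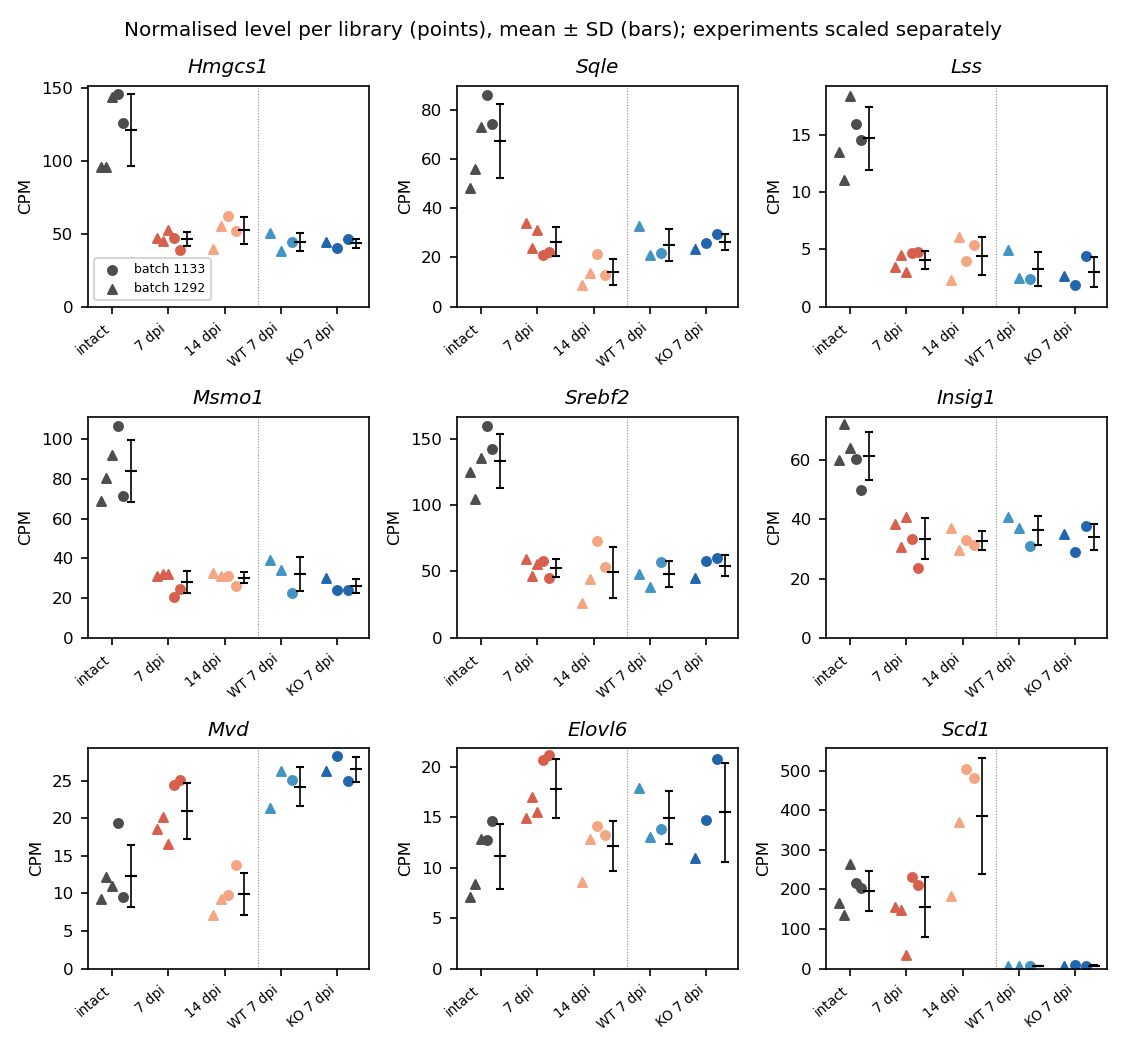
CPM per library for 9 genes (circles, batch 1133; triangles, batch 1292), with the mean ± SD beside each group; the dotted line separates the Tomato and Cherry experiments, which were scaled separately. Hmgcs1, Sqle, Lss, Msmo1, Srebf2 and Insig1 were lower in all injured than in all intact libraries; Mvd and Elovl6 were higher at 7 dpi than at 14 dpi; Scd1 was near 0 in the Cherry libraries.

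The SREBP control genes split. Srebf2 stood at 125, 104, 135, 160 and 142 CPM in intact, at 59.3, 46.4, 55.4, 57.4 and 44.8 CPM at 7 dpi and at 26.4, 44.0, 73.0 and 53.0 CPM at 14 dpi. Every injured library was below every intact one, and the 14 dpi libraries were the more scattered. Srebf2 fell at both times, with log2 changes of -1.32 ± 0.18 at 7 dpi (adjusted p = 3.52e-05) and -1.50 ± 0.20 at 14 dpi (adjusted p = 0.000101). Insig1, which retains Scap, stood at 60.2, 72.2, 64.2, 60.4 and 49.9 CPM in intact, at 38.6, 30.7, 40.9, 33.5 and 23.5 CPM at 7 dpi and at 37.2, 29.5, 33.1 and 31.5 CPM at 14 dpi. The injured libraries again lay below the intact ones. Insig1 fell by 0.88 ± 0.14 and by 0.87 ± 0.15. Its paralogue Insig2 was at -0.29 ± 0.13 and -0.10 ± 0.14 and was not called. Scap, the escort, was at -0.36 ± 0.15 and -0.05 ± 0.16, and Srebf1 at -0.26 ± 0.15 and -0.21 ± 0.16; neither was called. At 7 dpi Insig2 and Scap were each called lower in 6 of 21 alternative settings.

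In fatty acid synthesis the enzymes from citrate to palmitate did not pass the test. Acly, which cleaves citrate to acetyl-CoA, was at 0.34 ± 0.14 at 7 dpi (adjusted p = 0.0674), where 3 of 21 alternative settings called it higher, and at 0.18 ± 0.15 at 14 dpi. Acaca, the carboxylase that makes malonyl-CoA, was at -0.30 ± 0.15 and -0.28 ± 0.16; 30.4% of its 50-base words recur in other genes. Fasn, fatty acid synthase, was at -0.32 ± 0.20 and -0.22 ± 0.22. Scd2, a desaturase and the most abundant of the 31 per length in intact (61.5 ± 17.7 RPKM, SD, n = 5), was at -0.15 ± 0.19 and 0.18 ± 0.20. Elovl6, which lengthens palmitate, stood at 7.12, 8.37, 12.8, 12.7 and 14.6 CPM in intact and at 14.9, 16.97, 15.5, 20.7 and 21.2 CPM at 7 dpi, above every intact library. It rose by 0.69 ± 0.17 (adjusted p = 0.00459). At 14 dpi it was at 8.57, 12.8, 14.1 and 13.2 CPM, inside the intact range.

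Scd1, the other desaturase, varied widely between libraries. It stood at 165, 134, 264, 216 and 203 CPM in intact, at 155, 147, 34.4, 231 and 211 CPM at 7 dpi and at 183, 369, 503 and 482 CPM at 14 dpi. The 7 dpi group lay inside or below the intact range, and 3 of 4 libraries at 14 dpi lay above it. Scd1 was called against intact at neither time (-0.43 ± 0.33 and 0.83 ± 0.35) and was higher at 14 than at 7 dpi by 1.25 ± 0.34 (log2 change 1.25, adjusted p = 0.0282). That call was lost in 10 of 20 alternative settings, among them leaving out 7 dpi replicate 4 (1.34) or 5 (1.27) or 14 dpi replicate 2 (1.10), 3 (1.21) or 4 (1.21). Summed markers of other cells are given beside it. Library 7 dpi replicate 3, lowest in Scd1, was also lowest in fibroblast markers (4433 CPM) and in perineurial markers (336 CPM) among the 7 dpi libraries. At 14 dpi replicate 1, with 183 CPM of Scd1, had the lowest fibroblast sum of its group, and replicate 3, with 503 CPM, had the highest. The same 2 libraries were lowest and highest in perineurial markers (1122 and 2540 CPM) and in Schwann cell markers (792 and 2658 CPM). These cell types are therefore not separated at 14 dpi. In intact, replicate 3 was highest in Scd1 and replicate 4 in fibroblast markers. From intact to 7 dpi, mean Scd1 went from 196 to 156 CPM and the mean fibroblast sum from 12080 to 13370 CPM. In the Cherry libraries, whose fibroblast sums were 839 to 3278 CPM, Scd1 was at 5.64 to 8.80 CPM. The part of other cells in the level of Scd1 was not tested. The 8 adipocyte markers summed to 47.5 to 137 CPM in the Tomato libraries, of which Lipe, a lipase also found outside fat, made 41.3 to 130 CPM. The defining markers were near 0, with Adipoq at 2.30 CPM or less, Plin1 at 0.69 or less and Cidec at 0.41 or less in every library.

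From 7 to 14 dpi, 9.93% of all genes tested were called, 5.73% higher and 4.20% lower; of the 31, Scd1 was higher and 4 were lower. The 4 were Mvd, Fdft1 (log2 change -0.72 ± 0.14, adjusted p = 0.00293), Sqle (-0.94 ± 0.24, adjusted p = 0.0194) and Elovl6 (-0.59 ± 0.18, adjusted p = 0.0491). None of the 20 sterol genes was called higher at 14 than at 7 dpi. Of the 20 estimates 15 were negative, the highest was 0.24 (Ggps1), and the median was -0.15, beside 0.06 over all genes. For Sqle the call was lost without 14 dpi replicate 1 (-0.76) or replicate 2 (-0.96). For Elovl6 it was lost in 14 of 20 settings. Within batch 1133 Sqle changed by -0.35 and within batch 1292 by -1.34.

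**Figure D3:**
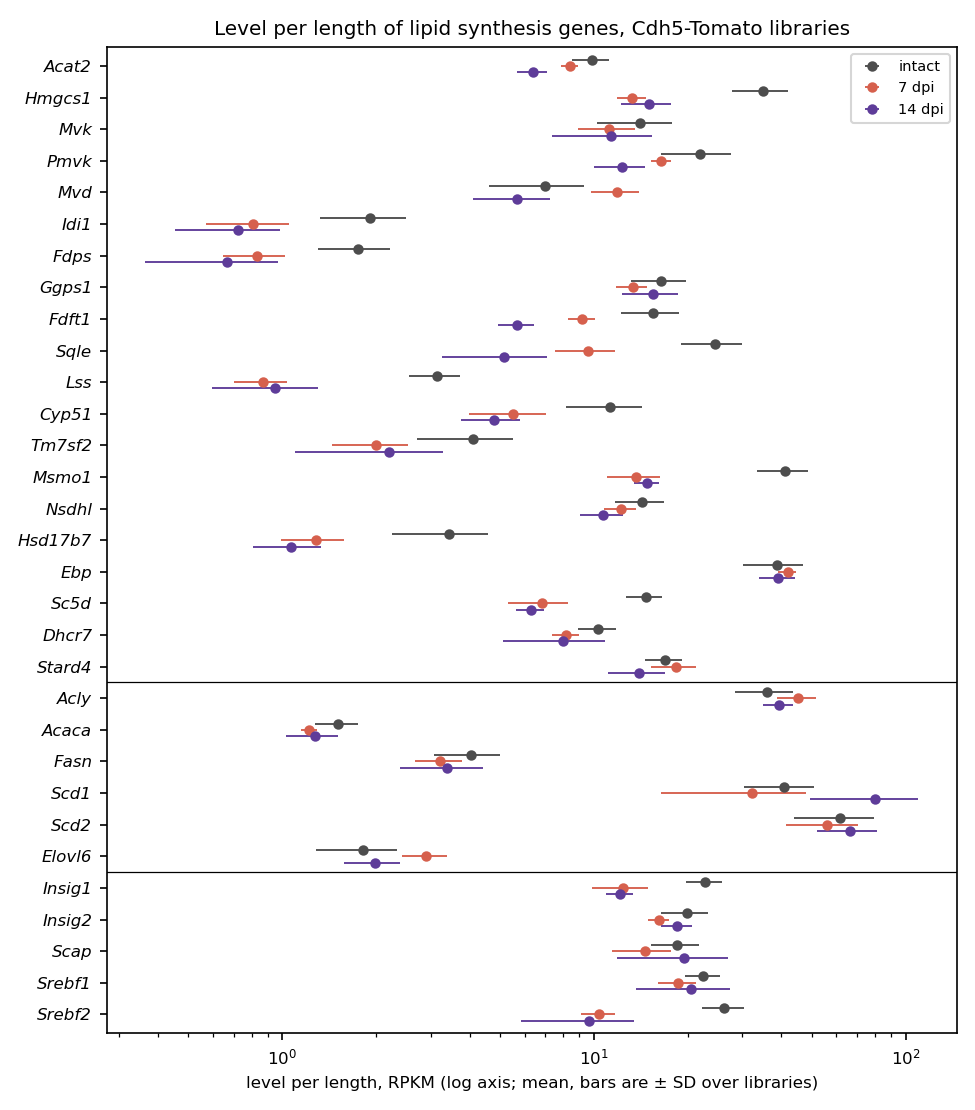
Level per length (RPKM, log axis) of the 31 genes in intact (grey), 7 dpi (red) and 14 dpi (purple) libraries, as mean ± SD. The sterol genes called lower lie left of their intact values, and the fatty acid genes other than Elovl6 and Scd1 stay close to theirs.

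Per length, Scd2, Msmo1 (41.1 ± 7.71 RPKM), Scd1 (40.7 ± 10.3), Ebp (38.6 ± 8.35), Acly (36.0 ± 7.68) and Hmgcs1 (34.8 ± 7.08) were the most abundant of the 31 in the intact libraries. Each neighbouring pair from Msmo1 down to Hmgcs1 in that order differed by less than its SDs. Scd2 lay above Msmo1, and Hmgcs1 above Srebf2 (26.2 ± 4.05), by more than either SD of the pair. The lowest were Idi1 (1.91 ± 0.59), Elovl6 (1.82 ± 0.52), Fdps (1.76 ± 0.45) and Acaca (1.52 ± 0.24).

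Transcripts of other nerve cells also changed between the groups. The 10 Schwann cell and myelin markers summed to 1099 to 1420 CPM in intact, 268 to 329 CPM at 7 dpi and 792 to 2658 CPM at 14 dpi; 7 of 10 fell and none rose at 7 dpi, and 5 rose and 2 fell at 14 dpi. Myelinating Schwann cells are known to express sterol synthesis genes strongly. The 5 perineurial markers summed to 2218 to 4701, 336 to 835 and 1122 to 2540 CPM; 5 of 5 fell at 7 dpi and 3 of 5 at 14 dpi. From 7 to 14 dpi, 9 of 10 Schwann and 4 of 5 perineurial markers rose. The 8 fibroblast markers summed to 9074 to 16620, 4433 to 19730 and 16240 to 35670 CPM, with 5 higher and 1 lower at 7 dpi and 6 higher at 14 dpi. The 8 mural markers summed to 1895 to 2591, 806 to 2118 and 1018 to 3492 CPM, with 6 lower at 7 dpi and 2 at 14 dpi, and none higher. All 5 red cell markers were lower at 7 dpi and none was called at 14 dpi. The 10 cell division genes were all higher at both times, at 112.4 to 152.5 CPM summed in intact, 928 to 1131 CPM at 7 dpi and 299 to 391 CPM at 14 dpi. The part of these cells and of division in the sterol result was not tested. Macrophage and leukocyte markers were highest in 7 dpi replicate 4 (321 CPM summed) and 14 dpi replicate 3 (1023 CPM). Without these 2 libraries, 10 sterol genes were lower and 1 higher at 7 dpi and 12 were lower at 14 dpi.

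**Figure D4:**
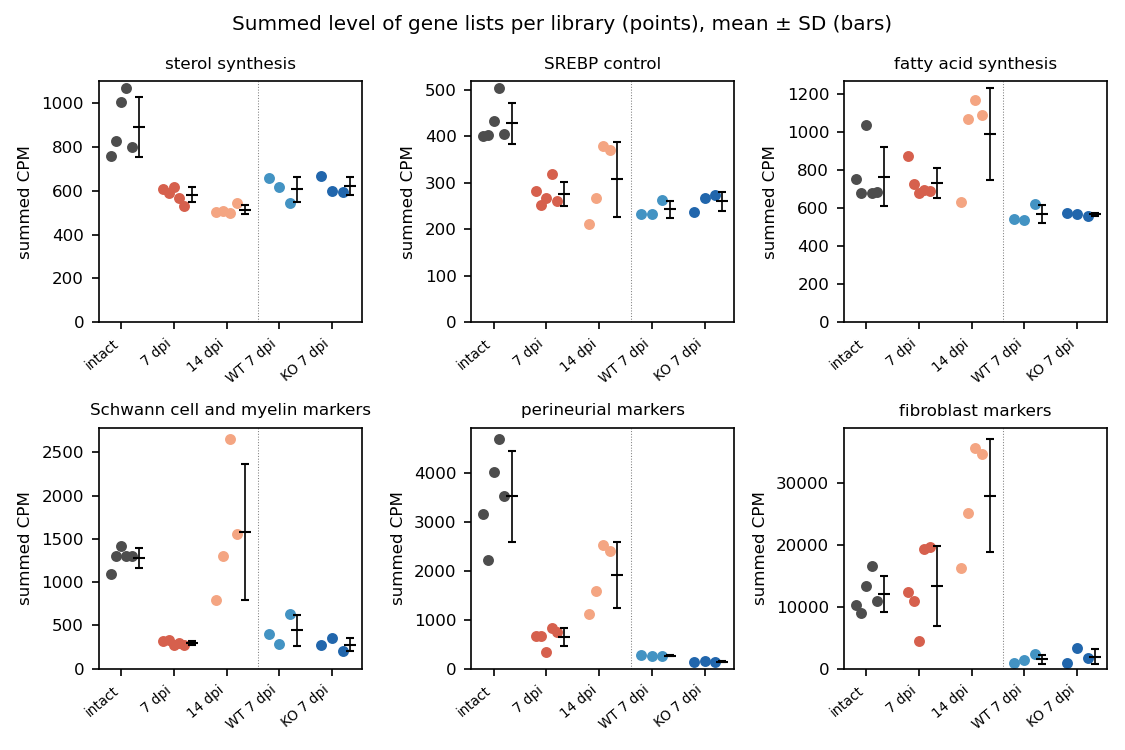
Summed CPM per library (points) with mean ± SD for 3 groups of lipid genes (top) and 3 lists of marker genes of other nerve cells (bottom); the dotted line separates the experiments. The sterol sums of all injured libraries lie below the intact range. The Schwann, perineurial and fibroblast sums are higher at 14 than at 7 dpi on average. The mean perineurial sum at 14 dpi (1919 CPM) is below that in intact (3528 CPM). The part of these cells in the sterol sums was not tested.

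Each batch held libraries of every group. Within batches, 30 of 31 genes had the same sign in both at 7 dpi and 24 of 31 at 14 dpi. The same share was not counted over all genes. All 15 genes called in each comparison had 1 sign, but they were called on these same libraries, so this is not separate support. Hmgcs1 changed at 7 dpi by -1.64 in batch 1133 and -1.16 in batch 1292, and Srebf2 at 14 dpi by -1.26 and -1.79. With batch 1133 alone, 7 sterol genes were called lower at each time. No gene of 20409 was called for a difference of the injury effect between batches, and 3 of the 31 had an unadjusted p under 0.05 at each time.

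Genes around the pathway were read from lists that do not overlap the 31. Among 12 genes of sterol export and LXR, the receptor that senses oxysterols, 3 rose and 3 fell at 7 dpi. At 14 dpi 3 rose and 2 fell. Over all genes tested, 15.7% were higher and 16.3% lower at 7 dpi, and 6.86% higher and 5.09% lower at 14 dpi. Abca1 and Abcg1, exporters of cellular cholesterol, rose at 7 dpi by log2 changes of 2.31 ± 0.18 and 2.25 ± 0.23 and were 2.04 ± 0.19 and 1.39 ± 0.24 above intact at 14 dpi. Abca1 went from 24.5 to 90.0 CPM in the intact libraries to 147 to 377 CPM at 7 dpi and 130.6 to 239.7 CPM at 14 dpi. Abcg1 went from 22.6 to 94.6 CPM to 146 to 283 and 92.4 to 140 CPM. Mylip, a ligase that degrades lipoprotein receptors and a known LXR target, also rose, by 0.96 ± 0.27 and 1.43 ± 0.30. Cyp27a1 and Ch25h, enzymes that make oxysterols, fell by 3.54 ± 0.33 and 1.45 ± 0.20 at 7 dpi and by 2.13 ± 0.34 and 1.84 ± 0.23 at 14 dpi. Cyp27a1 was at 0.84 ± 0.46 CPM in the WT Cherry libraries (SD, n = 3), beside 7.93 ± 4.29 CPM at 7 dpi in the Tomato libraries (n = 5). Nr1h3, which encodes an LXR, fell at 7 dpi by 1.09 ± 0.18 and was not called at 14 dpi.

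Among 15 genes of fatty acid supply, elongation and desaturation, none rose and 7 fell at 7 dpi, and 2 fell at 14 dpi. Of all genes, 16.3% were lower at 7 dpi and 5.09% at 14 dpi. Elovl7, an elongase, fell by 2.78 ± 0.23 and 1.69 ± 0.24. Mid1ip1, an activator of acetyl-CoA carboxylase, fell at 7 dpi by 1.58 ± 0.19 and not at 14 dpi, where it was at -0.38 ± 0.20. Fads1, which makes polyunsaturated fatty acids, fell by 0.97 ± 0.17 at 7 dpi and 1.24 ± 0.19 at 14 dpi. In the isoprenoid branch, which leads to prenylated proteins, dolichol and ubiquinone, 3 of 12 genes rose and 2 fell at 7 dpi and none was called at 14 dpi. These 7 dpi counts stand beside 15.7% higher and 16.3% lower over all genes. Nus1, a subunit of the dolichol-making transferase, rose by 1.10 ± 0.13, and Pdss1, which makes the ubiquinone tail, by 0.71 ± 0.21. The farnesyltransferase subunits Fntb and Fnta fell by 0.74 ± 0.15 and 0.53 ± 0.14.

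Deletion of Plxnd1 was visible in its own transcript. Plxnd1 stood at 350, 324 and 344 CPM in WT and at 131.4, 160.5 and 160.1 CPM in KO, with no overlap, a log2 change of -1.23 ± 0.10 (adjusted p = 0.000129). Which exons are floxed is not in the labels, and the source of the remaining reads was not tested. In the Tomato experiment Plxnd1 rose after injury, by 1.46 ± 0.17 at 7 dpi and 1.09 ± 0.17 at 14 dpi.

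No lipid synthesis gene was called between KO and WT. Over all 16227 genes tested, 0.308% were called, 21 higher and 29 lower. That background moved with the setting, to 16 and 36 with scaling by library size alone, 120 and 121 with DESeq2, 305 and 245 with the ComBat-Seq counts and 3 and 2 without the batch term. Leaving out 1 library gave from 3 higher (without KO replicate 3) to 20 higher (without WT replicate 2). Lower calls then ran from 2 (without WT replicate 3) to 26 (without KO replicate 2). None of the 31 was called by edgeR, DESeq2 or limma-voom, nor in any other of the 16 alternative settings. In edgeR 2 were under 0.05 before adjustment, Ebp (0.29 ± 0.11, adjusted p = 0.344) and Fdft1 (0.29 ± 0.12, adjusted p = 0.404). Fdft1 stood at 38.3, 39.6 and 32.3 CPM in WT and at 44.1, 43.0 and 42.2 CPM in KO, and was the only one of the 31 with every KO library above every WT library. Ggps1 was the only one with every KO library below (65.3, 52.1 and 52.0 against 50.8, 44.0 and 47.4 CPM). With 3 libraries per group such separation also arises by chance, and its share over all genes was not counted. Neither Fdft1 nor Ggps1 is read as changed. Hmgcs1 was at 50.6, 38.2 and 44.6 CPM in WT and 44.3, 40.2 and 46.1 CPM in KO, with a 95% interval of -0.33 to 0.28 for its log2 change. Srebf2 was at 48.0, 38.2 and 57.3 CPM in WT and 45.1, 57.5 and 60.3 CPM in KO, with an interval of -0.22 to 0.32.

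Across the 31 genes the estimates ran from -0.21 (Fdps) to 0.31 (Tm7sf2), 19 of them positive, with a median of 0.05 beside -0.01 over all genes. The interval lay within 1 log2 unit of 0 for 28 of the 31, the exceptions being Fdps (down to -1.12), Lss (down to -1.05) and Tm7sf2 (up to 1.03). It lay within 0.5 for 16 of them. The half-width ran from 0.21 (Acly) to 1.02 (Lss). Summed sterol levels were 547 to 659 CPM in WT and 596 to 669 CPM in KO. None of the genes in the lists of sterol export, isoprenoid branch, other SREBP handling, fatty acid supply or fatty acid oxidation was called either. Of 4 perineurial markers tested, 1 was lower, Moxd1. The perineurial sums were 256 to 284.3 CPM in WT and 128.5 to 157.6 CPM in KO, without overlap. Schwann cell and myelin markers had a median log2 change of -1.12 with none called, and their sums overlapped (286.1 to 631.8 CPM in WT, 204.9 to 359.4 CPM in KO). Fibroblast sums overlapped too. The part of these cells in KO against WT was not tested.

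**Figure D5:**
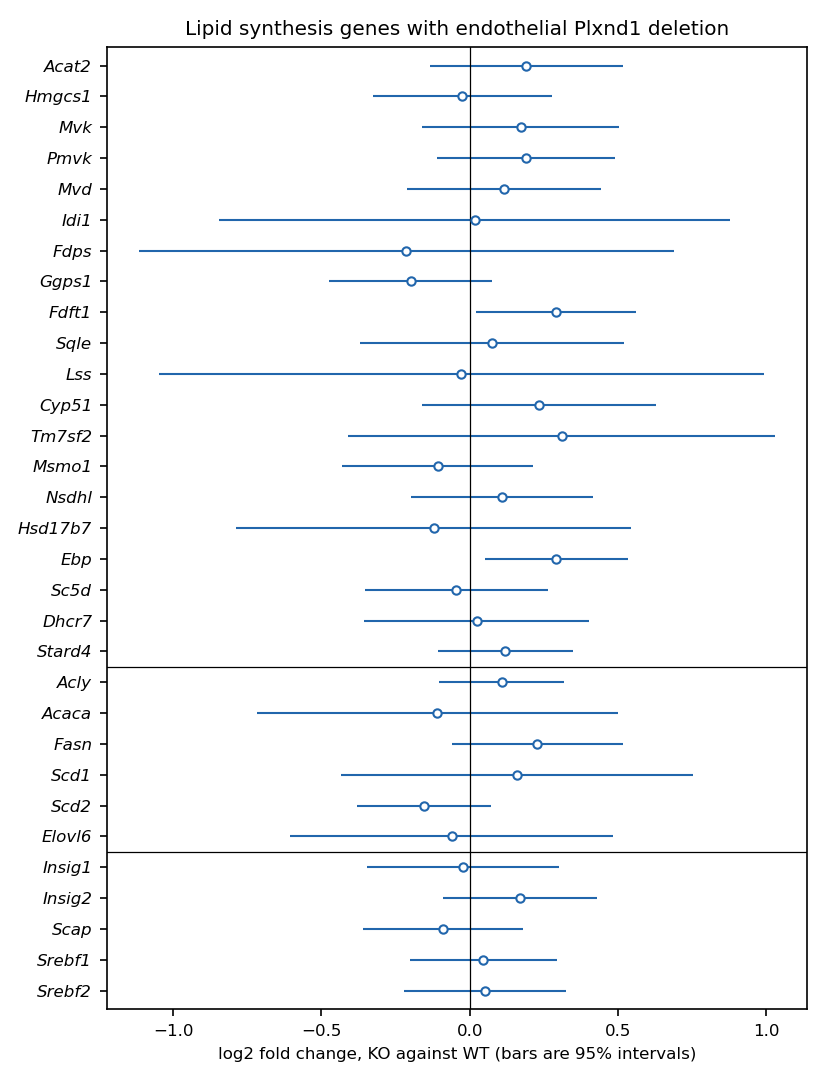
Log2 fold change of the 31 genes in KO against WT on the horizontal axis, with 95% intervals, in the same order as the plot of injury changes. The estimates lie between -0.21 and 0.31 and none passed the adjusted threshold.

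Set beside the Tomato experiment, the summed sterol level of the 6 Cherry libraries, 547 to 669 CPM, lay below the intact Tomato range of 758 to 1071 CPM. Hmgcs1 was 38.2 to 50.6 CPM in the 6 Cherry libraries, 38.9 to 52.7 CPM in Tomato libraries at 7 dpi and 95.3 to 145 CPM in intact. Mvd was 21.3 to 28.3 CPM in the Cherry libraries, and 16.6 to 25.1 CPM at 7 dpi in the Tomato libraries. The Cherry libraries carried fewer fibroblast transcripts (839 to 3278 CPM summed) and perineurial transcripts (128 to 284 CPM) than any Tomato library. There is no intact Cherry group, so the injury change was not measured with that reporter.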

How the data were processed

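Per the labels' protocols, pooled nerves were dissociated, and Tomato- or Cherry-positive, CD45-negative cells were sorted. The submitters' processing notes list Trimmomatic 0.39, STAR 2.5.3a, featureCounts 1.6.4, Cell Ranger 3.0.2 and mm10/GRCm38; annotation release, strand setting and how multiply mapped reads were handled were not given in the sources used. The authors deposited raw counts per gene for each experiment, and ComBat-Seq corrected counts for Cherry, used as an alternative only. Counts were tested as deposited with edgeR 4.0.16 (R 4.3.3): filterByExpr by group, TMM scaling, a model of group and batch (1133, 1292), and robust quasi-likelihood F tests, 1 fit for the 14 Tomato libraries and 1 for the 6 Cherry libraries. P-values were adjusted by Benjamini-Hochberg over all genes tested, and a call is an adjusted p under 0.05. SE is the log2 change divided by the square root of F. CPM uses TMM library sizes, RPKM adds the deposited exonic length, and a sum adds CPM over a list. Within-batch values are differences of mean log2(CPM + 1). The 95% intervals use the t quantile at the fit's own degrees of freedom and cover the spread between libraries only.

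Alternatives were RLE and library-size scaling, DESeq2 1.42.0, limma-voom (limma 3.58.1), other low-count filters, no batch term, the 2 groups alone, each batch alone and each library left out. On simulated counts the test recovered, at log2 changes of 1 and 2, 44.5% and 67.8% of changed genes for 7 dpi against intact (20409 genes). For KO against WT (16227 genes) it recovered 56.1% and 71.6%. False calls numbered 2 and 9. The changed genes were drawn at random from all those tested, so these rates are not those of the 31 genes. For 7 dpi only 110 and 90 genes were changed and no batch effect was simulated, whereas 32.0% of genes were called in the data. The simulated rates are therefore not the recovery in the data. Libraries of 1 group differed by more than sampling noise in all 32 pairs. Replicates are numbered in the order of the deposited records. Named were all 31 genes, Plxnd1, and of each further list up to 2 called genes with the greatest rise and fall; Adipoq, Plin1, Cidec, Lipe, Mbtps1 and Mbtps2 were added after their values were seen. The members and lists were chosen with earlier results of these data known. Promoter windows are RefSeq's, and shared 50-base words were counted in GENCODE M21 transcripts. A gene of a further list is not reported here.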

Additional observations from a re-analysis of the deposited data

Results flagged for a closer look

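In 93 groups of libraries (31 genes in intact, 7 dpi and 14 dpi), 2 held a library that stood apart from the rest by Dixon's ratio, a check that chance alone meets in about 1 of 20 groups. Pmvk was at 31.9 CPM in 7 dpi replicate 3, with the other 4 libraries between 26.9 and 27.6 CPM. Nsdhl was at 40.5 CPM in intact replicate 4, with the others between 26.4 and 30.3 CPM.

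For 5 genes the change from intact differed between 14 and 7 dpi in the test of the difference itself, which shares the intact libraries and so equals the comparison of 14 with 7 dpi. The log2 difference was -1.12 for Mvd, -0.72 for Fdft1, -0.94 for Sqle, 1.25 for Scd1 and -0.59 for Elovl6.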

How the results depend on the processing

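No paired analysis was possible because the labels give no replicate numbers shared across groups and do not say that libraries with neighbouring title numbers belong together. No called gene reversed its direction under any setting run. Against intact, 299 of 315 alternative values kept their call at 7 dpi and 279 of 300 at 14 dpi; from 7 to 14 dpi, 71 of 100 did. Leaving out each library gave 2 higher and 12 to 17 lower at 7 dpi, 0 higher and 14 to 16 lower at 14 dpi, 0 to 1 higher and 3 to 4 lower from 7 to 14 dpi, and 0 for KO. Batch 1133 alone, with fewer libraries, gave 0 higher and 8 lower at 7 dpi, 1 higher and 7 lower at 14 dpi, 0 higher and 0 lower from 7 to 14 dpi. Batch 1292 alone gave 1 higher at 7 dpi and 0 higher from 7 to 14 dpi. With no low-count filter 1 gene was higher at 14 dpi, Scd1. From 7 to 14 dpi, DESeq2 called 7 lower, and 0 were higher without the batch term, with only the 2 groups, or, in a setting added after seeing the data, without 7 dpi replicate 4 and 14 dpi replicate 3; beyond fewer libraries, the cause was not tested. Idi1, Fdps and Lss have low counts, which limits their precision.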

Other observations

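Of 14 genes of fatty acid oxidation, 1 rose and 2 fell at 7 dpi, where 32.0% of all genes were called, and none was called at 14 dpi, where 12% were. Acadm, the medium-chain acyl-CoA dehydrogenase, fell at 7 dpi by 1.01 ± 0.14 on the log2 scale and was higher at 14 than at 7 dpi by 0.63 ± 0.15. Slc25a20, which carries acylcarnitines into mitochondria, rose at 7 dpi by 0.45 ± 0.16, and Eci1, an isomerase of unsaturated chains, fell by 0.38 ± 0.14. The list's summed level overlapped between the groups, at 1010 to 1483 CPM in intact, 1233 to 1415 CPM at 7 dpi and 1224 to 1520 CPM at 14 dpi.

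Among further genes that handle SREBP proteins or their partners, Rnf139, a ubiquitin ligase of the endoplasmic reticulum, fell at 7 dpi by 0.59 ± 0.12, and Erlin1, which is part of a complex in the same membrane, rose by 0.55 ± 0.16. Neither was called at 14 dpi. Mbtps1 and Mbtps2, the proteases that release SREBP proteins, were at 0.11 ± 0.20 and 0.03 ± 0.18 at 7 dpi and were not called.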
